A study of Homo sapiens with 19 samples.

Results

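The CCN genes and the YAP target genes considered here were chosen by name: CCN1, CCN2, CCN3, CCN4, CCN5, ANKRD1, AMOTL1, AMOTL2, LATS2 and AJUBA. All 10 were found among the 44717 genes listed in the count tables. RNA-seq was performed on 19 samples in 7 groups from 501Mel, a human melanoma line grown in RPMI with foetal calf serum, and Hermes 3A, an immortalised, untransformed human melanocyte line. The Hermes 3A medium also held TPA, cholera toxin, stem cell factor and endothelin-1, so the cell line and its medium cannot be told apart. The 501Mel groups were a scrambled shRNA (shSCR1, n = 3) with the shRNA against BRG1 (shBRG1, n = 3), and a second scrambled group (shSCR2, n = 2) with the shRNA against MITF (shMITF, n = 2). The Hermes 3A groups were shSCR, shBRG1 and shMITF (n = 3 each), and both Hermes 3A knockdowns share the same control samples. All groups, controls included, had received lentiviral pLKO vectors and puromycin selection. Each target is represented by its labelled shRNA in established lines, nothing in the labels ties the replicates to separate cultures, and the p-values then measure only the spread between these samples, which may be technical.

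CCN proteins are secreted, cysteine-rich proteins of the extracellular matrix that bind integrins and other surface receptors and affect adhesion, migration and matrix deposition. YAP and its relative TAZ are coactivators held out of the nucleus by the Hippo kinases, and they drive genes such as CCN1, CCN2 and ANKRD1 through DNA-bound TEAD proteins. AMOTL1, AMOTL2, LATS2 and AJUBA act within the same pathway: angiomotin-like proteins bind YAP, LATS2 is a kinase that phosphorylates it, and AJUBA restrains LATS kinases. BRG1, encoded by SMARCA4, is the ATPase of BAF and PBAF chromatin remodelling complexes, and MITF is the transcription factor that directs the melanocyte programme.

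The samples held from 29158502 to 78857900 counts. The biological coefficient of variation, the replicate spread shared by all genes, was 4.56% to 5.88% in the shSCR1, shBRG1 and Hermes 3A shSCR groups, and reached 16.5%, 17.4% and 28.6% in 501Mel shSCR2, 501Mel shMITF and Hermes 3A shMITF. Levels are CPM, the counts of a gene over the sample's total on a common scale, scaled by TMM factors over all samples. SMARCA4 was 5.12-fold lower in 501Mel shBRG1 and 5.203-fold lower in Hermes 3A shBRG1, without overlap between samples. MITF was 2.09-fold lower in 501Mel shMITF (log2 difference -1.06, or -0.96 with library sizes alone), whereas in Hermes 3A shMITF it ranged from 460 to 723 CPM against 1020 to 1130 CPM in shSCR, a log2 difference of -0.85 (edgeR adjusted p = 0.0194). With shBRG1 MITF was lower as well, at a mean of 564 CPM in 501Mel shSCR1 and 199 CPM in shBRG1. In Hermes 3A its means were 1064 CPM in shSCR and 797 CPM in shBRG1. SOX10 had means of 468 CPM in 501Mel shSCR1 and 89.4 CPM in shBRG1. All 8 melanocyte markers were present at 1 CPM or more in every sample, and their summed level was 28631 to 31299 CPM in 501Mel shSCR1 and 3027 to 3333 CPM in shBRG1. In bulk samples, fewer cells of a type and less RNA per cell cannot be told apart.

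TEAD proteins recognise a core of the letters GGAATG, so promoters of members in which it was found are shown first, read 5′ to 3′ on the gene's strand from the RefSeq table for GRCh38.p14. The table held a window, 250 bases before to 50 after an annotated start, for 6 of the 10 members, and 5 of these held the core on either strand, in 5 of their 8 windows. Over all 35116 windows, 14.0% held it, and 16.7% of genes did in at least 1 window. Among other YAP and TAZ target genes with a window it was 5 of 12, among Hippo genes 5 of 19 and among melanocyte markers 2 of 5. Capitals mark GGAATG or its reverse complement, and where the window lay in an annotated exon only the match and its flanks are given.
CCN2, chr6:131951374-131951622, minus strand: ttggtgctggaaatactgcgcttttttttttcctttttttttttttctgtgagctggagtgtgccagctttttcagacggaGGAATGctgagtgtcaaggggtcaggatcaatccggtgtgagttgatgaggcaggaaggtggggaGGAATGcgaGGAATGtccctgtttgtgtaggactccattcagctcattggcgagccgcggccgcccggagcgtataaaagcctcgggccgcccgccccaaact
ANKRD1, chr10:90921277-90921337, minus strand: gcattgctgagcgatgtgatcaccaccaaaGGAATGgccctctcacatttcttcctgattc
ANKRD1, match within an annotated exon, chr10:90921200-90921225, minus strand: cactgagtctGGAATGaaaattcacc
AMOTL2, second start, chr3:134374501-134374526, minus strand: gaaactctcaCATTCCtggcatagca
LATS2, chr13:21061562-21061587, minus strand: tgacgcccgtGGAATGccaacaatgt
AJUBA, second start, chr14:22976886-22976911, minus strand: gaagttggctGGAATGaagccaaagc
CCN2 held 3 copies, beginning 169, 104 and 95 bases before the start, and 0.128% of all windows held 3 or more. ANKRD1 held 2 copies, 220 and 128 bases before the start, and an AP-1 letter pattern, TGANTCA, 195 bases before it. The LATS2 window also held CACGTG, an E-box of the kind MITF can bind, 5 bases before the start. No GGAATG was found in the windows of AMOTL1, of the first AMOTL2 start or of the first AJUBA start. Among all windows, 7.26% held CACGTG and 7.71% held TGANTCA, each searched on both strands, and no match in any of them shows that a factor was bound.

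When CPM were divided by exon length to compare genes, CCN1 was the most abundant member in 501Mel shSCR1 and CCN3 in Hermes 3A shSCR. In 501Mel shSCR1, CCN1 stood at 42.4 ± 3.40 CPM per kb (SD, n = 3), followed by CCN2 (16.8), AMOTL1 (10.7), LATS2 (9.32) and AMOTL2 (4.28), with no overlap between neighbours in this order. CCN3 (2.83) and AJUBA (2.59) overlapped, as did ANKRD1 (0.263) and CCN5 (0.225). In 501Mel shSCR2 the order was not resolved, since LATS2 (10.6), CCN1 (10.2), AMOTL1 (9.85) and CCN2 (9.69) overlapped. In Hermes 3A shSCR, CCN3 stood at 53.9 ± 0.35 CPM per kb (SD, n = 3), above CCN1 (44.3), LATS2 (33.8), AMOTL2 (16.1), AMOTL1 (12.5), CCN2 (10.8) and AJUBA (3.29), again without overlap. CCN4 had 0 to 5 counts in every one of the 19 samples and was not tested in any comparison, and CCN5 lay below 2 CPM throughout.

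**Figure D1:**
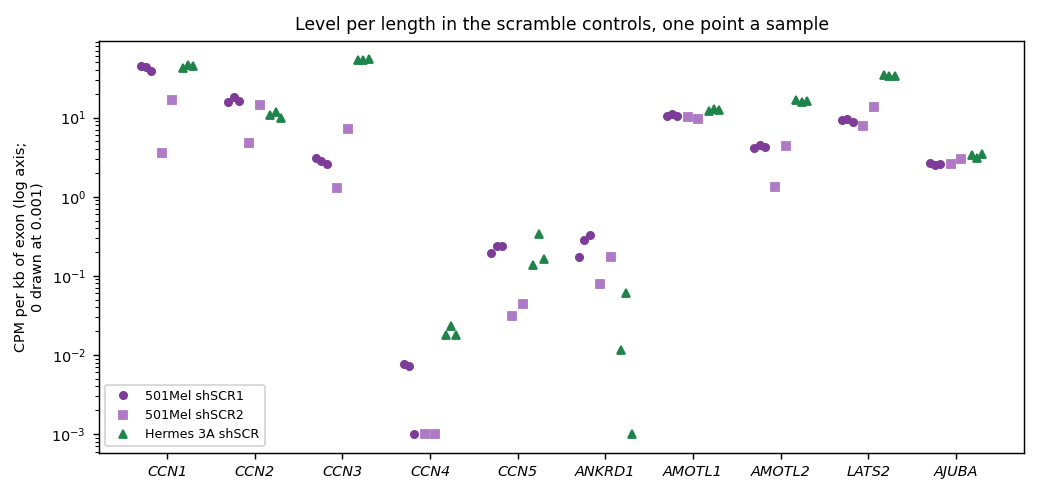
Levels of the members in the scramble controls, in CPM per kb of exon on a log axis, one point per sample of 501Mel shSCR1, 501Mel shSCR2 and Hermes 3A shSCR. CCN3, LATS2 and AMOTL2 lie higher in Hermes 3A than in either 501Mel control, and the 2 shSCR2 samples are far apart for CCN1, CCN2, CCN3 and AMOTL2.

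Between the lines, 5 of 9 members tested were called, that is adjusted p under 0.05 with a fold above 2, where 38.1% of all genes were. CCN3, the most abundant member per kb in Hermes 3A shSCR, was 14.7-fold lower in 501Mel (log2 difference -3.88, edgeR adjusted p = 4.93e-04). Its samples ranged from 3.47 to 19.4 CPM in 501Mel and from 143 to 145 CPM in Hermes 3A, and without shSCR2 replicate 2 the log2 difference was -4.75. AMOTL2 was 4.43-fold lower (edgeR adjusted p = 0.0017) and LATS2 3.32-fold lower (edgeR adjusted p = 3.89e-06). CCN5 was also called lower, by -1.09 on the log2 scale, but against shSCR1 alone its difference was 0.16, so the call depended on the shSCR2 samples. ANKRD1 was called higher in 501Mel, where it had 5 to 30 counts per sample against 5 counts in total over the Hermes 3A controls. The second scramble group did not match the first: CCN1 was 112, 106 and 95.2 CPM in shSCR1 and 8.71 and 41.5 CPM in shSCR2. Of 9 members tested between these scramble groups 1 was called (CCN5), where 33.0% of all genes were. Without shSCR2 replicate 2 that count was 6 (30.7% of all genes), and it was 3 without shSCR2 replicate 1 (32.6%) or shSCR1 replicate 1 (30.4%), so the 501Mel knockdowns were each set against their own control. Between the lines, CCN1 was called lower in 501Mel as well without shSCR2 replicate 2 or with DESeq2. The CCN5 call was also lost without Hermes 3A shSCR replicate 2 (-0.64) and with library sizes alone (-0.90).

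BRG1 knockdown in 501Mel gave large increases of CCN1, CCN2, ANKRD1 and AMOTL2 and a decrease of AMOTL1. The other members tested, LATS2 and AJUBA among them, stayed under the fold needed for a call. CCN1, which codes for a secreted matrix protein, was 112, 106 and 95.2 CPM in shSCR1 and 1445, 1475 and 1271 CPM in shBRG1. CCN2, its close relative known for its part in fibrosis, was 36.9, 42.5 and 38.4 CPM in shSCR1 and 699.9, 665 and 595 CPM in shBRG1. For both genes the lowest knockdown sample was far above the highest control. The increase was 12.9-fold for CCN1 (log2 3.69 ± 0.065 SE, edgeR adjusted p = 3.86e-23) and 16.1-fold for CCN2 (log2 4.01 ± 0.063 SE, edgeR adjusted p = 8.37e-24).

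ANKRD1, an ankyrin repeat protein of muscle and of stressed cells, passed from near the detection limit to a clearly measured level. It had 17, 30 and 23 counts in shSCR1, or 0.339, 0.566 and 0.657 CPM, and reached 90.02, 78.5 and 74.9 CPM in shBRG1. The increase was 154-fold (log2 7.27 ± 0.12 SE, edgeR adjusted p = 8.88e-24). In knockdown cells its level per kb (41.0) overlapped that of AMOTL2 (35.9), although in the controls AMOTL2 stood at 4.28 and ANKRD1 at 0.263 CPM per kb.

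Among the angiomotin-like genes the directions were opposite. AMOTL2 was 24.5, 27.3 and 25.1 CPM in shSCR1 and 232, 221 and 192 CPM in shBRG1, an 8.10-fold increase (edgeR adjusted p = 6.85e-22). AMOTL1 was 106, 111 and 105 CPM in shSCR1 and 40.1, 37.2 and 39.1 CPM in shBRG1, 2.87-fold lower (edgeR adjusted p = 1.56e-18). The 2 paralogues thus exchanged their order, AMOTL1 being above AMOTL2 in every control and below it in every knockdown sample.

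The Hippo regulators LATS2 and AJUBA moved less. LATS2 was 52.5, 53.9 and 49.5 CPM in shSCR1 and 94.0, 80.6 and 82.2 CPM in shBRG1, a 1.59-fold difference (edgeR adjusted p = 8.68e-11) that was under the fold needed for a call. AJUBA was 16.03, 15.0 and 15.4 CPM in shSCR1 and 21.9, 22.4 and 22.5 CPM in shBRG1, a 1.39-fold difference. CCN3 was 8.18, 7.65 and 6.83 CPM in controls and 8.997, 9.28 and 9.73 CPM in knockdown cells (log2 difference 0.25), and CCN5 was 0.978, 1.19 and 1.20 CPM against 0.827, 0.687 and 0.779 CPM (log2 difference -0.59).

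**Figure D2:**
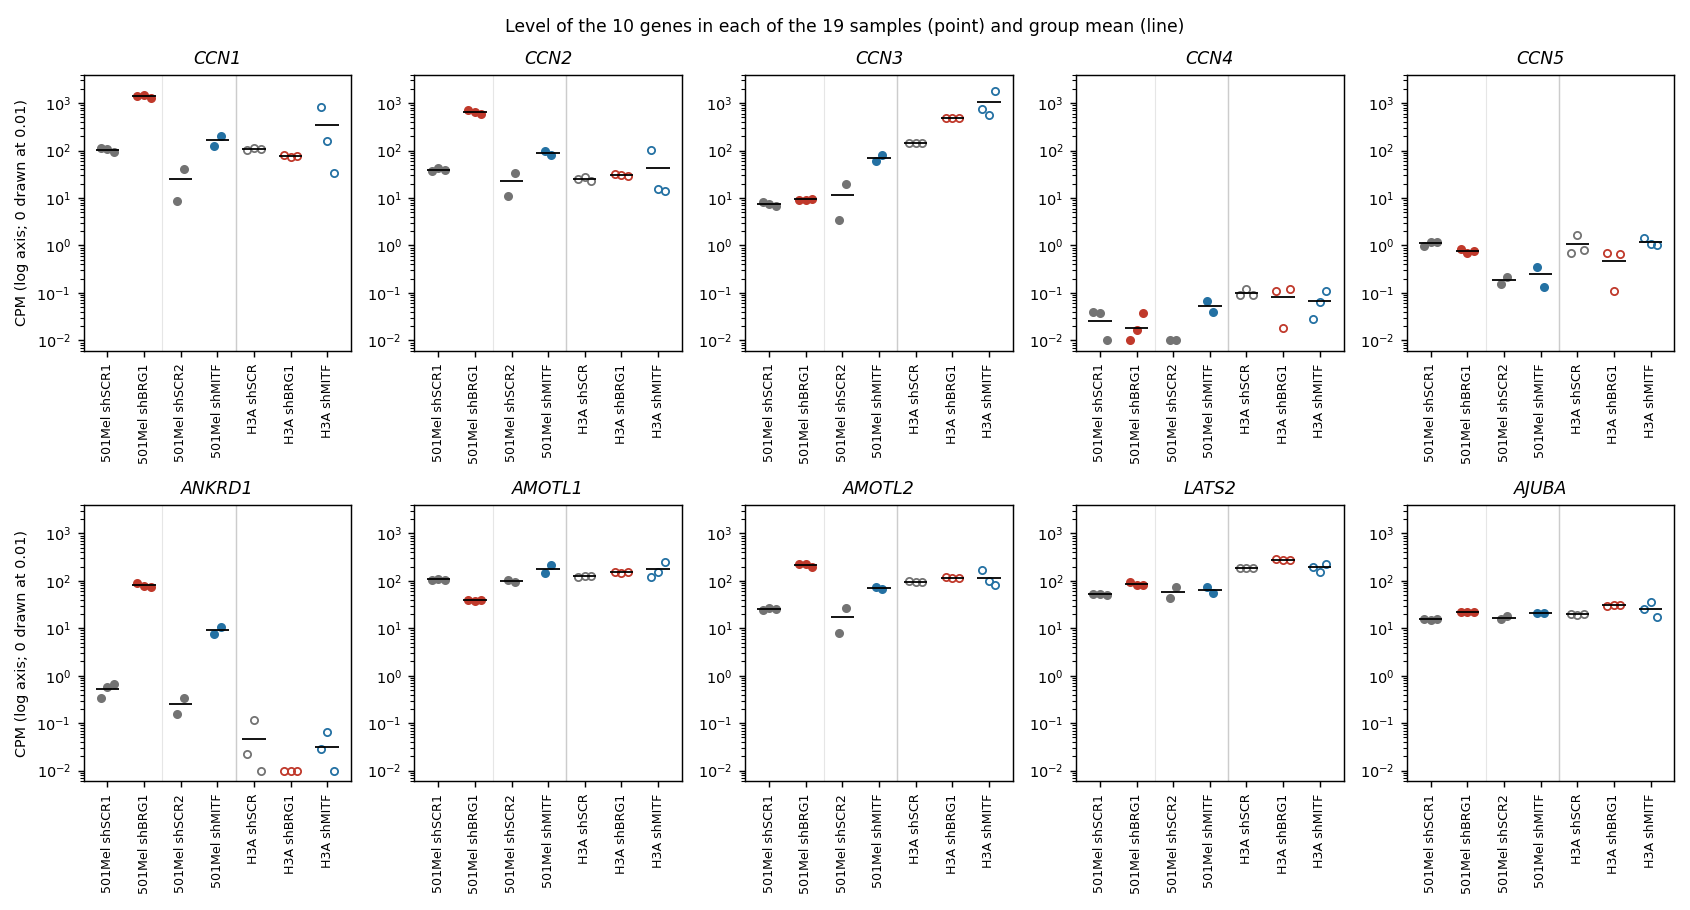
CPM of each member in every sample, on a log axis, by group, with a bar at each group's mean. The 3 points of 501Mel shBRG1 stand above all other 501Mel samples for CCN1, CCN2, ANKRD1 and AMOTL2, and CCN3 is highest in the Hermes 3A knockdown groups.

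Of 9 members tested in 501Mel shBRG1, 4 were called higher and 1 lower, where 39.1% of all 20514 genes tested were called (21.7% higher and 17.4% lower). No tested member overlapped between the groups, as was so for 81.6% of all genes. The median log2 difference was 0.67 over the members tested and 0.05 over all genes. Scaling by library size alone moved the median of all genes by 0.35 and the calls from 4453 higher and 3571 lower to 6188 and 2401, while the same 5 members were called and LATS2, at a log2 difference of 1.02, was called with them. Summed fibroblast markers were 3.48 to 4.85 CPM in shSCR1 and 15.7 to 18.9 CPM in shBRG1, with 4 of 5 tested called higher and COL3A1 at 0.201 CPM in shBRG1, and all 8 melanocyte markers were called lower. The part of these markers in the differences of the members was not tested.

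The same knockdown in Hermes 3A melanocytes left CCN1, CCN2 and AMOTL2 within a 2-fold range of their controls, and the largest increase was that of CCN3, an inhibitor of proliferation in several cell types. CCN3 was 144, 143 and 145 CPM in shSCR and 484, 496 and 484 CPM in shBRG1, 3.35-fold higher (log2 1.74 ± 0.039 SE, edgeR adjusted p = 6.68e-24). CCN1 was 104, 113 and 109 CPM in shSCR and 80.6, 72.2 and 76.4 CPM in shBRG1, a log2 difference of -0.52 (edgeR adjusted p = 1.18e-10). CCN2 was 24.9, 27.8 and 23.2 CPM against 32.1, 30.7 and 29.2 CPM, a log2 difference of 0.27 (edgeR adjusted p = 0.0017). The sign of the small CCN1 difference was therefore opposite to that of CCN2 in these cells.

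Differences between the Hermes 3A groups were small but separate for the pathway members as well. AMOTL1 was 123, 128 and 126 CPM in shSCR against 153, 149 and 152 CPM in shBRG1 (log2 difference 0.25), and AMOTL2 was 99.0, 93.9 and 96.3 CPM against 119, 112 and 115 CPM (0.24). LATS2 was 190.3, 189 and 187 CPM against 284, 271 and 274 CPM (0.53), and AJUBA 19.9, 18.6 and 20.5 CPM against 29.9, 30.5 and 30.4 CPM (0.60). All 8 members tested had groups that did not overlap, as did 61.7% of all genes, and 2 of them were called, where 9.26% of all genes were. The second call was CCN5, with 30, 56 and 35 counts in shSCR and 31, 6 and 27 counts in shBRG1 (log2 difference -1.17, edgeR adjusted p = 0.0440). It was lost without shBRG1 replicate 2 (-0.65, edgeR adjusted p = 0.1324), without shSCR replicate 2 (adjusted p = 0.1918) or 3 (adjusted p = 0.0908), and under DESeq2 (adjusted p = 0.2236). ANKRD1 had 1, 4 and 0 counts in shSCR and 0 counts in every shBRG1 sample. The limit that a count of 0 allows, 3 counts over the group, would be 0.0191 CPM of the raw totals, without TMM factors (counting error only). Summed melanocyte markers were 63788 to 65231 CPM in shSCR and 31366 to 32602 CPM in shBRG1, and summed fibroblast markers 71.8 to 81.1 CPM and 143 to 153 CPM. The latter sum was mostly COL1A2, with a mean of 68.0 CPM in shSCR and 143 CPM in shBRG1, while LUM had means of 6.47 and 3.76 CPM and the means of COL3A1 and DCN were at most 0.107 CPM. Their part in the CCN3 difference was not tested.

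The size of the BRG1 knockdown effect was then compared between the lines in a single model. Of 9 members tested 6 were called, where 26.9% of all genes were. The log2 effect was greater in 501Mel by 4.19 ± 0.080 SE for CCN1 (edgeR adjusted p = 7.42e-32), by 3.71 ± 0.084 SE for CCN2 (edgeR adjusted p = 1.05e-29) and by 2.74 ± 0.076 SE for AMOTL2 (edgeR adjusted p = 1.17e-27). It was lower in 501Mel by -1.53 for CCN3 (edgeR adjusted p = 4.85e-19) and by -1.80 for AMOTL1 (edgeR adjusted p = 1.22e-24). The differences of CCN1 and of AMOTL1 thus had opposite signs in the lines, each with no overlap between groups. ANKRD1 was the sixth member called, but no fold is given for it because Hermes 3A was at or near the limit of counting. For LATS2 the effects differed by 0.10 (approximate 95% interval -0.03 to 0.24). The AJUBA effects differed by -0.16 (approximate 95% interval -0.34 to 0.02). With TMM scaling no difference between the lines was thus detected for the kinase or its regulator. Scaling by library size alone moved the median of all genes by 0.27, more than either difference. The AJUBA difference then became 0.11, of opposite sign, and the LATS2 effect in 501Mel moved from 0.67 to 1.02.

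**Figure D3:**
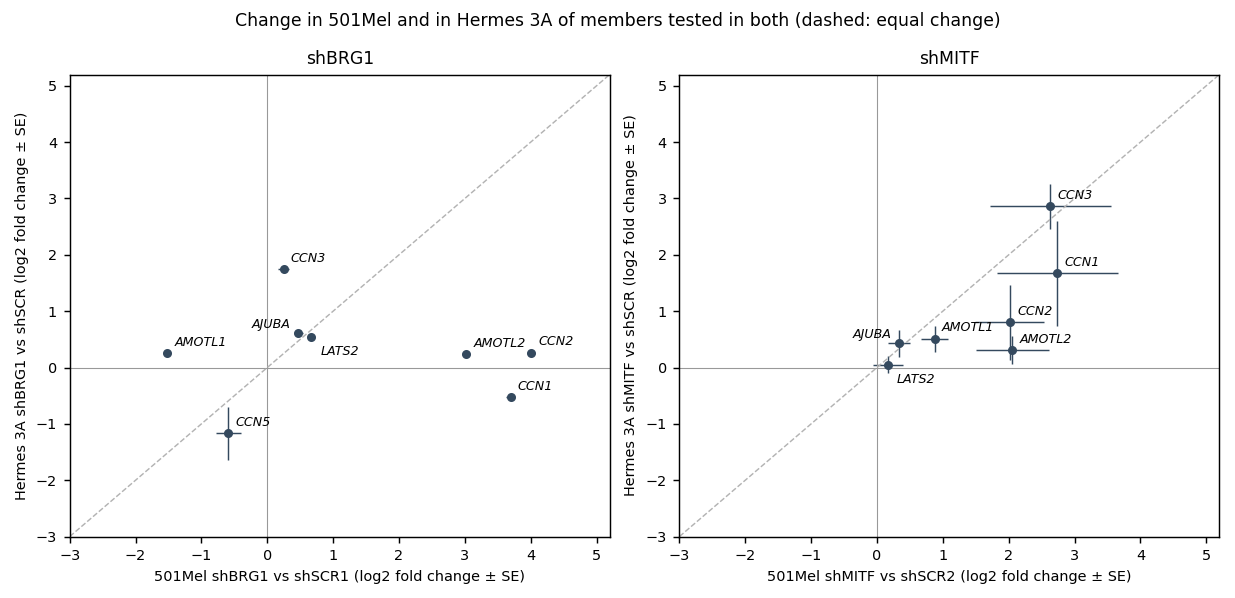
Log2 fold change against the scramble control in 501Mel (horizontal axis) and Hermes 3A (vertical axis) for shBRG1 on the left and likewise shMITF on the right, 1 point per member tested in both lines, with bars of 1 SE and a dashed line of equal change. On the left CCN1, CCN2 and AMOTL2 lie far to the right of the line, CCN3 and AMOTL1 to its left and LATS2 and AJUBA near it.

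In 501Mel shMITF, ANKRD1 rose and most other members were higher in both knockdown samples, but the 2 control samples differed widely from each other. ANKRD1 was 0.156 and 0.345 CPM in shSCR2 (5 and 25 counts) and 7.44 and 10.7 CPM in shMITF, a 33.9-fold increase (log2 5.08 ± 0.42 SE, edgeR adjusted p = 2.64e-04). Without shSCR2 replicate 2 the control rested on 5 counts and the log2 difference was 5.79. CCN1 was 8.71 and 41.5 CPM in shSCR2 and 126 and 202 CPM in shMITF (log2 difference 2.74 ± 0.92 SE, edgeR adjusted p = 0.1605). CCN2 was 11.1 and 34.2 CPM against 99.0 and 82.2 CPM (log2 difference 2.02 ± 0.52 SE, edgeR adjusted p = 0.0661). The first shSCR2 sample was the lower for CCN1 and CCN2, as it was for CCN3, AMOTL2 and LATS2.

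CCN3 was 3.47 and 19.4 CPM in shSCR2 and 61.2 and 79.1 CPM in shMITF (log2 difference 2.63, edgeR adjusted p = 0.1665). AMOTL2 was 7.84 and 26.5 CPM against 74.6 and 66.8 CPM (log2 difference 2.06, edgeR adjusted p = 0.0745). AMOTL1 was 102 and 95.6 CPM against 144.5 and 214 CPM, a log2 difference of 0.87 with an adjusted p of 0.0236 from edgeR, under the fold needed for a call. AMOTL1 was thus higher in shMITF cells and lower in shBRG1 cells, each against its own control. LATS2 overlapped between the groups, with 43.6 and 74.9 CPM in shSCR2 and 74.8 and 56.5 CPM in shMITF.

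Only ANKRD1 was called in 501Mel shMITF, 1 of 8 members tested, where 8.99% of all genes were. Of those 8, 7 had both knockdown samples above both controls, as did 30.9% of all genes. With 2 samples a group the count depended on single libraries: without shSCR2 replicate 1, or without replicate 2, 5 members were called, where 7.61% and 7.05% of all genes were. CCN1, CCN2, CCN3, ANKRD1 and AMOTL2 were those 5 each time, and they were also the 5 called by DESeq2, where 7.94% of all genes were. AMOTL1 was called beside ANKRD1 without shMITF replicate 1. In these fits a lone sample is assumed to vary like the other group. Summed melanocyte markers were 19862 to 23597 CPM in shSCR2 and 11404 to 11870 CPM in shMITF. Of these 8 markers 2 were called lower, where 8.99% of all genes were called, and 1 with library sizes alone. TYR alone had a higher mean in shMITF, 817 CPM against 596 CPM in shSCR2. The part of these markers in the values of the members was not tested.

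In Hermes 3A shMITF, CCN3 was again the member called, and CCN1 and CCN2 varied strongly among the knockdown samples. CCN3 was 144, 143 and 145 CPM in shSCR and 744, 556 and 1809 CPM in shMITF, 7.27-fold higher (log2 2.86 ± 0.40 SE, edgeR adjusted p = 0.0033). It was the single call of 8 members tested, where 7.39% of all genes were called, and it was called whichever single sample was left out, though without shMITF replicate 3 the log2 difference was 2.20. CCN1 was 104, 113 and 109 CPM in shSCR and 831, 156 and 34.1 CPM in shMITF, so that its samples lay on both sides of the controls. Its log2 difference of 1.67 ± 0.93 SE (edgeR adjusted p = 0.2580) became -0.17 without shMITF replicate 1.

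CCN2 followed the same samples, at 100.3, 15.5 and 14.0 CPM against 24.9, 27.8 and 23.2 CPM in shSCR. Its log2 difference of 0.80 ± 0.67 SE became -0.76 without replicate 1 (edgeR adjusted p = 0.0082), under the fold needed for a call. AMOTL2 was 169.6, 102 and 81.7 CPM in shMITF, also highest in replicate 1, and its log2 difference of 0.31 became -0.058 without that sample. AMOTL1 was 123, 157 and 250.5 CPM, LATS2 193, 155 and 230.3 CPM and AJUBA 25.6, 35.1 and 17.2 CPM in shMITF, none of which passed the test. ANKRD1 had 1, 2 and 0 counts in shMITF. The CCN3 sample of 1809 CPM was replicate 3, in which CCN1 was lowest. Summed melanocyte markers were 63788 to 65231 CPM in shSCR and 26497 to 34315 CPM in shMITF, where 3 of 8 were called lower, and summed fibroblast markers 114 to 223 CPM, again mostly COL1A2 (a mean of 144 CPM). Their part in these values was not tested.

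The difference between the lines in the MITF knockdown effect was not resolved for the members. By edgeR 0 of 9 were called, 2 had an unadjusted p under 0.05 (ANKRD1 and AMOTL2), where 17.6% of all genes had, and DESeq2 called those 2, where 2.64% of all genes were called by edgeR and 4.69% by DESeq2. Leaving out a sample gave 1 call in some fits: CCN2 without Hermes 3A shMITF replicate 1, AMOTL2 without shSCR2 replicate 2, and ANKRD1 without Hermes 3A shSCR replicate 3 or shMITF replicate 2. The intervals, which are approximate, were wide. The effect on CCN1 was 1.06 greater in 501Mel on the log2 scale (approximate 95% interval -2.14 to 4.25). For CCN3 the difference was -0.24 (approximate 95% interval -2.02 to 1.54).

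Set against each other within 501Mel, the BRG1 effect exceeded the MITF effect for CCN2 by 2.04 on the log2 scale (edgeR adjusted p = 0.0131), or by 1.03 without shSCR2 replicate 2, and for ANKRD1 by 2.27 (edgeR adjusted p = 0.0018). It was below the MITF effect by -2.37 for AMOTL1 (edgeR adjusted p = 8.01e-07), which was lower in shBRG1 and higher in shMITF than in the respective controls. CCN3 was below it by -2.32 (edgeR adjusted p = 0.0454), a call that was lost with library sizes alone (adjusted p = 0.0513) and without any one shSCR1 or shBRG1 sample, or either shMITF sample (adjusted p from 0.0713 to 0.1334), and its value was -1.65 without shSCR2 replicate 1 and -4.05 without replicate 2. The CCN1 difference, 1.02, was not called (edgeR adjusted p = 0.3119), but without shSCR2 replicate 1 it was called, as was AMOTL2, and without shSCR2 replicate 2 it was -0.50. The ANKRD1 call was lost without shSCR2 replicate 2 (1.47) and the CCN2 call without shMITF replicate 2, where CCN5 was called lower. In all, 4 of 9 members were called, where 27.3% of all genes were. MITF was lower in both 501Mel knockdowns, so this comparison does not separate loss of BRG1 from loss of MITF. In Hermes 3A, where the knockdowns were compared directly, 0 of 8 members were called by edgeR and 1, CCN3, by DESeq2, where 5.81% and 7.22% of all genes were. CCN3, CCN1 and LATS2, 3 of the 8, had an unadjusted p under 0.05, where 30.5% of all genes had, and CCN3 stood -1.12 lower in shBRG1 than in shMITF on the log2 scale (edgeR adjusted p = 0.0994). Each shMITF sample mattered here, since CCN2 was called without replicate 1, CCN3 without replicate 2 and CCN1 without replicate 3.

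**Figure D4:**
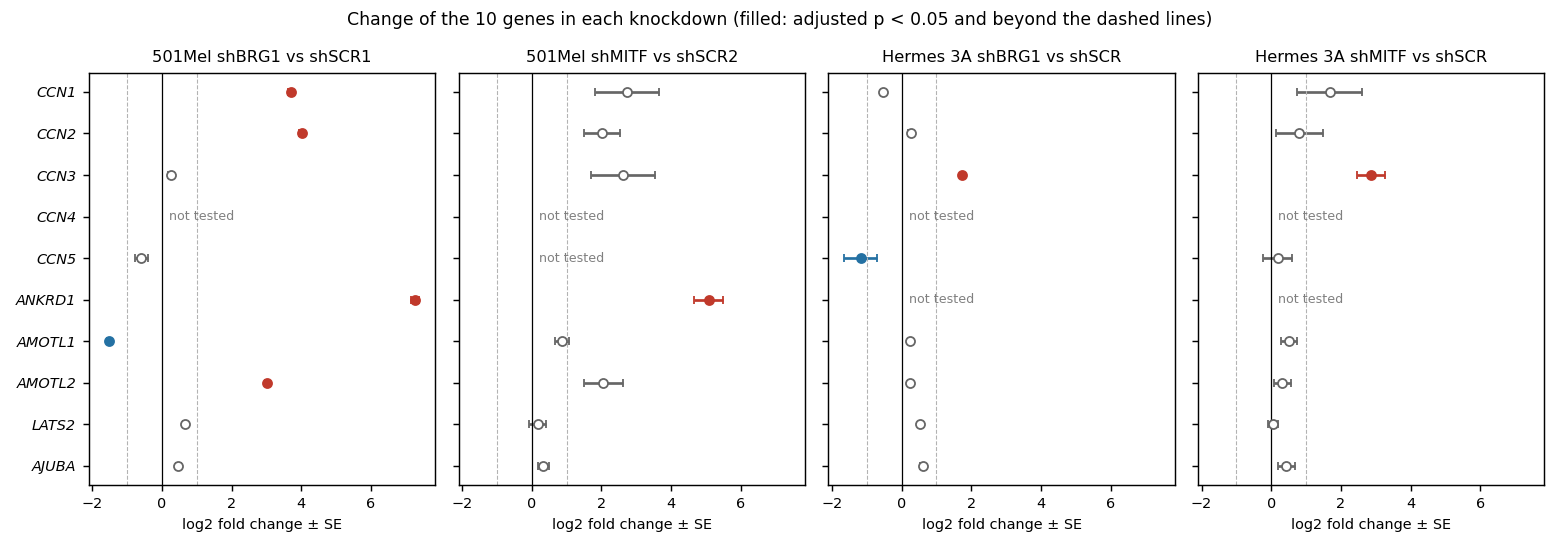
Log2 differences of the members, knockdown against its own scramble control, for each line and shRNA, with bars of 1 SE and filled points where the member was called. CCN1, CCN2, ANKRD1 and AMOTL2 are highest in 501Mel shBRG1, AMOTL1 is below 0 there only, and in Hermes 3A the filled points are CCN3 in both knockdowns and CCN5, lower, in shBRG1.

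The coactivators and the TEAD factors were measured beside their targets, from a list of 10 genes of which 8 were tested in each 501Mel comparison. In 501Mel shBRG1, YAP1 and WWTR1, the genes of YAP and TAZ, were lower by -1.27 (edgeR adjusted p = 8.85e-17) and -1.38 (edgeR adjusted p = 7.10e-18) on the log2 scale. Among the members tested there, 4 were called higher and 1, AMOTL1, lower, and the rest were under the fold needed. Of the TEAD genes, TEAD4 was called higher (1.08), TEAD1 (-0.72) and TEAD3 (-0.53) were lower by less than the fold needed, and TEAD2 (0.27) did not pass the test. VGLL3 (4.40), a TEAD cofactor, was called higher and VGLL4 (-1.10), which competes with YAP for TEAD, lower, both named after their values were seen. In all, 2 of the 8 were called higher and 3 lower, where 21.7% and 17.4% of all genes were, and with library sizes alone 2 and 1, since YAP1 (-0.92) and VGLL4 (-0.75) were then under the fold. In 501Mel shMITF, YAP1 differed by 0.29 (edgeR adjusted p = 0.1152) and WWTR1 by 0.64 (edgeR adjusted p = 0.0097), and TEAD1 to TEAD4, from -0.51 to 0.20, did not pass the test. VGLL3 (2.84) was the 1 of 8 called, where 8.99% of all genes were, and with library sizes alone VGLL4 (1.03) was called as well. For Hermes 3A the WWTR1 difference was 0.70 in shBRG1 and 0.82 in shMITF, under the fold needed for a call, and YAP1 was at -0.11 and 0.29. The TEAD genes in Hermes 3A lay between -0.17 and 0.60 in shBRG1, and between -0.90 (TEAD1) and 0.78 (TEAD3) in shMITF, with no call, and VGLL4 (1.35) was the 1 gene of the list called, in shMITF, where with library sizes alone VGLL3 (2.59) was called too. The effect of shBRG1 on WWTR1 differed between the lines by -2.11, and on YAP1 by -1.19, both called, the YAP1 difference being -0.91 and not called with library sizes alone.

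Other YAP and TAZ target genes, a list of 17, showed calls in both directions. In 501Mel shBRG1, 6 of 15 tested were called higher and 2 lower, where 21.7% and 17.4% of all genes were (median log2 difference 0.47, against 0.05 over all genes). They included CRIM1, a membrane protein with cysteine-rich repeats, at 0.799 CPM in shSCR1 and 11.98 CPM in shBRG1, the kinase NUAK2 at 3.04 and 35.5 CPM, and FJX1 at 6.82 and 38.7 CPM, as group means. In 501Mel shMITF, 5 of 15 were called higher and 2 lower, where 8.99% of all genes were called, among them MYOF, which acts in membrane repair (log2 3.07), CRIM1 (2.92) and the ligand TGFB2 (-4.87). CRIM1 was also called in Hermes 3A shBRG1 (1.25), where 2 of 17 were called, both higher, against 9.26% of all genes. In Hermes 3A shMITF, 3 of 17 were called higher, where 7.39% of all genes were called, among them FOXF2 (1.67) and MYOF (1.45).

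The 23 genes of the Hippo core and its regulators had 3 calls in each direction in 501Mel shBRG1, or 6 of 23 where 39.1% of all genes were called, and 4 higher and 2 lower with library sizes alone. The kinases TAOK3 (-2.10) and MAP4K4 (-1.70) were lower and WWC1, which codes for the scaffold KIBRA, was higher (1.35). In 501Mel shMITF 3 of 23 were called, where 8.99% of all genes were: WWC3 (2.63) and the protocadherin FAT4 (1.79) were called higher and TAOK3 (-1.01) lower, the last not with library sizes alone (-0.91). The Hermes 3A knockdowns had 2 calls of 23 each, where 9.26% and 7.39% of all genes were called, all higher: FAT4 (1.57) and its partner DCHS1 (1.09) were those in shBRG1, and RASSF1 (1.24) was among those in shMITF. A further list of 14 genes held receptors that CCN proteins are known to bind and CCN6, the remaining CCN gene. In 501Mel shBRG1, 3 of the 14 tested were called lower and 1 higher, where 17.4% and 21.7% of all genes were. LRP1, an endocytic receptor for CCN2, was 259 CPM in 501Mel shSCR1 and 27.9 CPM in shBRG1, 9.59-fold lower (edgeR adjusted p = 1.22e-22). LRP6 (-1.29) and the integrin gene ITGA6 (-1.09) were also called lower. With library sizes alone LRP1 was the single gene of these called lower, LRP6 (-0.94) and ITGA6 (-0.75) being under the fold, and 2 were called higher. In 501Mel shMITF 1 of 12 tested was called, ITGB5, higher (1.46), where 8.99% of all genes were called. In Hermes 3A shMITF 1 of 11 was called, ITGB3, lower (-1.35), where 7.39% of all genes were. In Hermes 3A shBRG1 0 of 11 were called, where 9.26% of all genes were.

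The genes whose levels were most like those of CCN1 and CCN2 over the 7 group means were sought among 9883 genes, by the root mean square (RMS) of the log2 difference after removing each gene's own mean. For CCN2 these were CDKN2B, a cyclin-dependent kinase inhibitor gene, with an RMS of 0.278, then DUBR (0.411), SNHG19 (0.543), SNPH (0.727) and CITED2 (0.773), where the median gene had 1.797. For CCN1 they were CDKN2B (0.676), CCN2 itself (0.782), CITED2 (0.872), CSRNP1 (0.873) and NEIL1 (1.01), where the median gene had 1.87. CDKN2B and CITED2 were on both lists. CDKN2B had a mean of 30.1 CPM in 501Mel shSCR1 and 305 CPM in shBRG1, and 17.1, 20.6 and 15.9 CPM in Hermes 3A shSCR, shBRG1 and shMITF. The likeness is a description over 7 groups that share lines and controls.

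**Figure D5:**
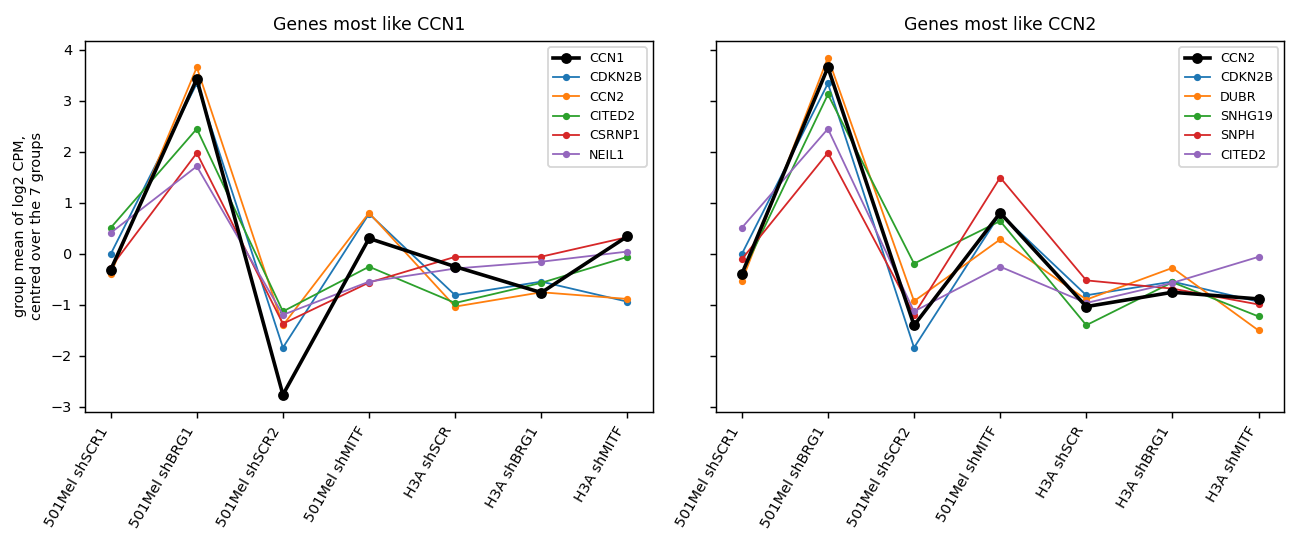
Group means of log2 CPM, each gene centred on its own mean over the 7 groups, for CCN1 and CCN2 and for the genes most like each. Every gene drawn is highest in 501Mel shBRG1, and CCN1 is lowest in 501Mel shSCR2.

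The members also differ in how cleanly their counts can be read. CCN2 shares 195 exon bases with the antisense gene AL133346.1, AMOTL1 496 with the antisense gene AP002383.2, AMOTL2 187 with the pseudogene RPL39P5 and AJUBA 50 with AL132780.3 in GENCODE 29, and the strand setting of the counting was not given in the sources used here. In GRCh38, CCN1 lies on chromosome 1 (85580761 to 85583962, plus strand), CCN2 on chromosome 6 (131948176 to 131951373, minus strand), ANKRD1 on chromosome 10 (90912096 to 90921276, minus strand), AMOTL1 on chromosome 11 (94706431 to 94876753, plus strand) and AMOTL2 on chromosome 3 (134355874 to 134375479, minus strand). LATS2 lies on chromosome 13 (20973032 to 21061547, minus strand), AJUBA on chromosome 14 (22971174 to 22982642, minus strand) and CCN5 on chromosome 20 (44714844 to 44728509, plus strand), while CCN3 and CCN4 are both on chromosome 8.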

How the data were processed

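Total RNA depleted of ribosomal RNA was sequenced after treatment with duplex-specific nuclease, which lowers abundant transcripts and so may compress differences of highly expressed genes. The authors deposited raw counts per gene. The submitters' processing notes name CASAVA 1.8, TopHat 1.4.1, Bowtie 0.12.7 and hg19, while the counter, annotation release and strand setting are not given in the sources used here. Gene lists differed between tables, which held 42224, 41467 or 34033 genes, and a gene entered a fit if every sample of that fit listed it.

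The deposited counts were fitted with edgeR 4.0.16 (R 4.3.3, limma 3.58.1) by quasi-likelihood with TMM scaling and filterByExpr, and p-values were adjusted by the Benjamini-Hochberg method over all genes tested. A gene was called at an adjusted p under 0.05 with an absolute log2 fold change above 1. SE was taken from the F statistic. Effects were compared between lines or shRNAs by interaction contrasts. Alternatives included DESeq2 1.42.0, other scalings, filters and control sets, and each sample left out. The scripts were tested on simulated data. Coordinates, exon lengths and overlaps are from GENCODE 29 (GRCh38), not from the authors' hg19 mapping, and were joined by gene identifier. Replicate samples differed by more than counting noise, and each was counted as a replicate.

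The members and gene lists were chosen with earlier results of these data known. All 10 members, both targeted genes, YAP1, WWTR1 and TEAD1 to TEAD4 were named, and from the Hippo, other target and receptor lists, per comparison, the 3 called genes of largest absolute log2 fold change with at least 100 counts on average in the higher group. Genes most like CCN1 and CCN2 were the 5 of smallest RMS among genes with at least 100 counts in every sample. The keratinocyte list, another check of the cell type, had 1 of 6 genes at 1 CPM or more in every sample of each group, with summed levels of 26.5 to 65.9 CPM.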

Additional observations from a re-analysis of the deposited data

Results flagged for a closer look

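The effect of shBRG1, tested as an interaction in 1 model, differed between 501Mel and Hermes 3A for 5 members beside ANKRD1, and for these the difference itself passed the edgeR test. On the log2 scale it was 4.19 for CCN1, 3.71 for CCN2 and 2.74 for AMOTL2, where the effect was higher in 501Mel, and -1.53 for CCN3 and -1.80 for AMOTL1, where it was lower in 501Mel. All 5 were called in every fit that left out 1 sample. The number of members tested was 9, and 26.9% of all genes were called in the same comparison. The lines also differed in medium, and in summed melanocyte markers (28631 to 31299 CPM in 501Mel shSCR1, 63788 to 65231 CPM in Hermes 3A shSCR). That sum was mostly PMEL (means of 19092 and 27958 CPM) and TYRP1 (5855 and 29641 CPM). DCT alone among these markers was higher in 501Mel, with means of 1539 CPM in shSCR1 and 22.2 CPM in Hermes 3A shSCR. MITF itself fell further with shBRG1 in 501Mel than in Hermes 3A. The part of medium, markers or MITF in these differences was not tested. No group held enough samples for a test of single samples that stand apart.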

How the results depend on the processing

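The counts of members called were recomputed under each alternative. In 501Mel shBRG1 the count of 5 was also found whichever sample was left out (5 to 5), and became 9 with the adjusted p alone. In 501Mel shMITF the count of 1 became 2 with library sizes alone, with the adjusted p alone and with both scramble groups pooled, 5 with DESeq2, with the replicate block and in 1 fit of the whole line, and 0 where every sample had to hold at least 10 counts, because ANKRD1 was not tested; leaving out samples gave 1 to 5. In Hermes 3A shBRG1 the count of 2 became 1 with library sizes alone, DESeq2, at least 10 counts, the replicate block, glmTreat and 1 fit of the whole line, and 8 with the adjusted p alone (1 to 2 without single samples). In Hermes 3A shMITF it was 1 in every alternative. For the shMITF effect between lines, 0 became 2 with DESeq2, 1 with no filter and 1 with the replicate block (0 to 1 without single samples). For the shBRG1 effect between lines it was 6 to 6 without single samples, and for shBRG1 against shMITF in 501Mel 3 to 6. For shBRG1 against shMITF in Hermes 3A, 0 became 1 with DESeq2 (0 to 1 without single samples). Between the lines' scramble controls, 5 became 3 with at least 10 counts (4 to 6 without single samples), and between scramble groups 1 became 3 with library sizes alone and 2 with DESeq2 (1 to 6 without single samples).

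Same-numbered replicates did not deviate together where there were 3 pairs, with correlations from -0.0489 to 0.0681. In 501Mel shMITF the correlation was 0.1308, and -0.1308 between samples of different number. With 2 samples a group the deviations mirror each other, so pairing could not be judged there. The main fits took the numbers as names of samples only. The replicate block changed no other count of members called.

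Signs changed as follows on the log2 scale. With the replicate block, the shMITF effect between lines became 0.34 for CCN3 and -0.061 for CCN5, and shBRG1 against shMITF in Hermes 3A became 0.13 for CCN2 and 0.0052 for AMOTL2. The pooled scramble groups gave 0.027 for CCN5 in 501Mel shBRG1. The shBRG1 effect between lines on AJUBA became 0.11 with library sizes alone and 0.039 with at least 10 counts. The scramble controls of the lines differed by -0.13 for CCN2 with shSCR2 alone and by 0.16 for CCN5 with shSCR1 alone, and the scramble groups by -0.019 for AJUBA with library sizes alone.

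Without single samples, signs changed in 501Mel shMITF for LATS2 (-0.15 to 0.54), in Hermes 3A shMITF for CCN1 (-0.17 to 2.21), CCN2 (-0.76 to 1.22), CCN5 (-0.067 to 0.65), AMOTL2 (-0.058 to 0.52) and LATS2 (-0.087 to 0.18), and in the shBRG1 effect between lines for CCN5 (-0.020 to 0.93). They changed in the shMITF effect between lines for CCN3 (-0.96 to 1.43), CCN5 (-0.67 to 0.67), LATS2 (-0.19 to 0.50) and AJUBA (-0.32 to 0.18), and in shBRG1 against shMITF for CCN1 (-0.50 to 1.66) and AMOTL2 (-0.11 to 1.57) in 501Mel and for CCN2 (-0.96 to 1.01), AMOTL1 (-0.46 to 0.062), AMOTL2 (-0.28 to 0.29) and AJUBA (-0.051 to 0.47) in Hermes 3A. The scramble controls of the lines did so for CCN2 (-0.21 to 0.57), and the scramble groups for CCN3 (-1.07 to 1.35), AMOTL2 (-1.65 to 0.049) and LATS2 (-0.20 to 0.52). None of these values were called before the sample was left out, and the cause of the changes was not tested.

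Over all genes, 8024 were called in 501Mel with shBRG1 and 1592 with shMITF, and in Hermes 3A 1594 and 1220. With the adjusted p alone they were 16464, 3638, 9796 and 2806. With glmTreat they were 223 in 501Mel shMITF, 602 in Hermes 3A shBRG1 and 185 in Hermes 3A shMITF. With at least 10 counts they were 5183 in 501Mel shBRG1 and 1056 in Hermes 3A shBRG1, 3555 against 5834 for the shBRG1 effect between lines, 3801 against 7754 between lines and 3558 against 6282 between scramble groups. For 501Mel shMITF they were 575 with pooled scramble groups, 2518 in 1 fit of the whole line and 956 without shMITF replicate 2. For the shMITF effect between lines they were 904 with DESeq2 against 509, and 152 to 803 without single samples, the lowest being without 501Mel shMITF replicate 2. Leaving out an shSCR sample gave 590 to 677 in Hermes 3A shMITF, and leaving out an shBRG1 sample 363 to 413 against 984 in shBRG1 against shMITF. Library sizes alone moved the calls from 553 higher and 667 lower to 686 and 540 in Hermes 3A shMITF, from 2610 and 3224 to 3692 and 2284 for the shBRG1 effect between lines, and from 2625 and 3447 to 3585 and 2667 for shBRG1 against shMITF in 501Mel, and the median of all genes by 0.10 in Hermes 3A shBRG1, 0.20 between lines, 0.22 in shBRG1 against shMITF and -0.14 between scramble groups. CCN4, CCN5 and, in Hermes 3A, ANKRD1 were limited by depth.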
